A study of Mus musculus with 8 samples.

Results

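The 9 homeobox genes followed here were Six2, Six3, Six4, Six5, Six6, Vax1, Vax2, Rax and Barhl2. Their levels came from bulk RNA sequencing of mouse embryonic forebrain and spinal cord. Several act in the eye and anterior forebrain, but the set is not limited to such genes. For example, Six2 is best known from nephron progenitors, and Six4 is a gene of muscle and sensory ganglia. All 9 genes were taken from the table by gene symbol. All 9 were present among the 36317 gene symbols of the deposited table, and all 9 passed the filter on low values that left 17022 genes for testing. Vax2 passed that filter only through its level in the knockout. The groups were EED-cKO forebrain at embryonic day (E) 15.5, wild-type (wt) forebrain at E15.5, wt spinal cord at E13.5 and wt forebrain at E13.5, with 2 libraries each. In EED-cKO embryos the knockout of Eed depends on Sox1-Cre. Sox1 is a gene of neural progenitors, so cells outside the neural lineage, such as vessels and meninges, are not the cells in which this driver is known to act. Strain, the targeted allele, and whether a library came from 1 embryo or a pool are not given in the labels, so the p-values cover the spread between libraries, which may be technical. Levels are RPKM, reads scaled to transcript length and to mapped reads, rounded to 0.1. No counts accompany them, so depth is unknown.

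The EED protein reads and helps to spread a repressive histone methyl mark as part of the Polycomb complex PRC2, which keeps developmental regulators silent outside their own territory. Six3, Six6 and Rax belong to the eye field, the patch of anterior neural plate that forms the retina, and are later used in the hypothalamus. Vax1 and Vax2 pattern the ventral forebrain, the optic stalk and the ventral retina. Six-type homeodomain proteins bind DNA and work with Eya coactivators, with Dach proteins and with Groucho-type corepressors of the Tle family. Barhl2 acts in amacrine and ganglion cells of the retina and in neurons of the diencephalon and spinal cord.

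The start-site regions of 3 members are shown because these genes differed in outcome: Six6 and Six2 were higher in EED-cKO forebrain by ratios of 11.3 and 8, and Vax1 did not pass the test. Each sequence is the 250 bases before the annotated start from RefSeq GRCm38.p6, on the gene's strand, with every CG dinucleotide in capitals. Six6 lies at chr12:72939632-72939881 (plus strand), Six2 at chr17:85688255-85688504 (minus strand) and Vax1 at chr19:59170398-59170647 (minus strand).
Six6: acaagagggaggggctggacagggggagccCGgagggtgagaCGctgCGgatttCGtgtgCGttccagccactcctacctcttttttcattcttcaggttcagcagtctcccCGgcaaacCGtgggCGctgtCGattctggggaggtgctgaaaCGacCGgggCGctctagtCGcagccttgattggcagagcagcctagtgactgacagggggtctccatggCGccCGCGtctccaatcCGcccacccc
Six2: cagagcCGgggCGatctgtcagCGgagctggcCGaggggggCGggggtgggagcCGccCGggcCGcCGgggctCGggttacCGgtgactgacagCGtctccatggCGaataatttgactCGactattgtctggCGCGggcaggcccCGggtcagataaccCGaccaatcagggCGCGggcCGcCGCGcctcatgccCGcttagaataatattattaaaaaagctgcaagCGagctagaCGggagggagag
Vax1: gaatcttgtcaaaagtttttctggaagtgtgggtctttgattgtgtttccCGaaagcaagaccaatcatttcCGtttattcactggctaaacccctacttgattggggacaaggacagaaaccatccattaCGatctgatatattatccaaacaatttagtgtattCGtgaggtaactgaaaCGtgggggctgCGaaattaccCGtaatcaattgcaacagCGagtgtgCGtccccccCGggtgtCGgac
These windows hold 17 CG in Six6, 26 in Six2 and 11 in Vax1, where the median of 32851 RefSeq promoter windows is 6. As many CG or more were found in 23.5% of all windows for the Six6 count, 9.59% for the Six2 count and 35.6% for the Vax1 count. Windows of 7 of the 9 members were examined, not those of Rax and Vax2. Rax was left out of the search, so whether it has an entry is not reported here. Among these 7, Barhl2 had the most CG, 36, a count reached by 2.58% of windows. Six3 had the fewest, 10. The window of Six5 held 13 CG, and those of 2 start sites of Six4 held 15 and 13. Searched on both strands, TCAGGTT, the core of the MEF3 motif bound by Six-type proteins, occurred in the windows of Six6 and of the first Six4 start, and in 3.49% of all windows. CCAAT occurred in Six2, Six3, Six6, Vax1 and the second Six4 start, and in 33.8% of all windows. TAATTA, a homeodomain palindrome, occurred in no window of the members examined and in 4.84% of all windows. These matches describe letters and were not read as binding sites.

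The libraries were checked before the members were compared. Eed had 10 and 10.6 RPKM in EED-cKO forebrain and 25.8 and 27.9 RPKM in wt forebrain at E15.5, a log2 difference of -1.30 (SE 0.085, limma adjusted p = 8.65e-05). Whether these reads cover the deleted part of Eed is not known from the table. Telencephalic marker genes, 6 in all, ranged over 3.1 to 31.7 RPKM in EED-cKO and 12.2 to 70.6 RPKM in wt forebrain at E15.5. The same 6 genes were at 0 to 0.5 RPKM in spinal cord and at 35.2 to 74.9 RPKM in forebrain at E13.5. Of 7 spinal cord and hindbrain markers, none was at 0 in EED-cKO and 5 were at 0 in both wt libraries at E15.5, with ranges of 0.3 to 13.6 RPKM in EED-cKO and 0 to 14.7 RPKM in wt. EED-cKO replicate 2 stood apart from replicate 1 in transcripts of other tissues. The growth hormone gene Gh had 42.4 RPKM in EED-cKO replicate 2 and was listed at 0 in EED-cKO replicate 1 and in both wt libraries at E15.5. Likewise the muscle gene Myl1 had 20.7 RPKM in EED-cKO replicate 2 and 0.2 in replicate 1, against 0.1 and 0.5 RPKM in wt forebrain. The summed RPKM of all libraries was 761647 to 771823 in EED-cKO and 775646 to 843296 in wt forebrain at E15.5, but 378294 to 381572 in spinal cord and 395741 to 397320 in forebrain at E13.5. Age and processing therefore cannot be told apart, and levels at the 2 ages are set side by side without a test.

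**Figure D1:**
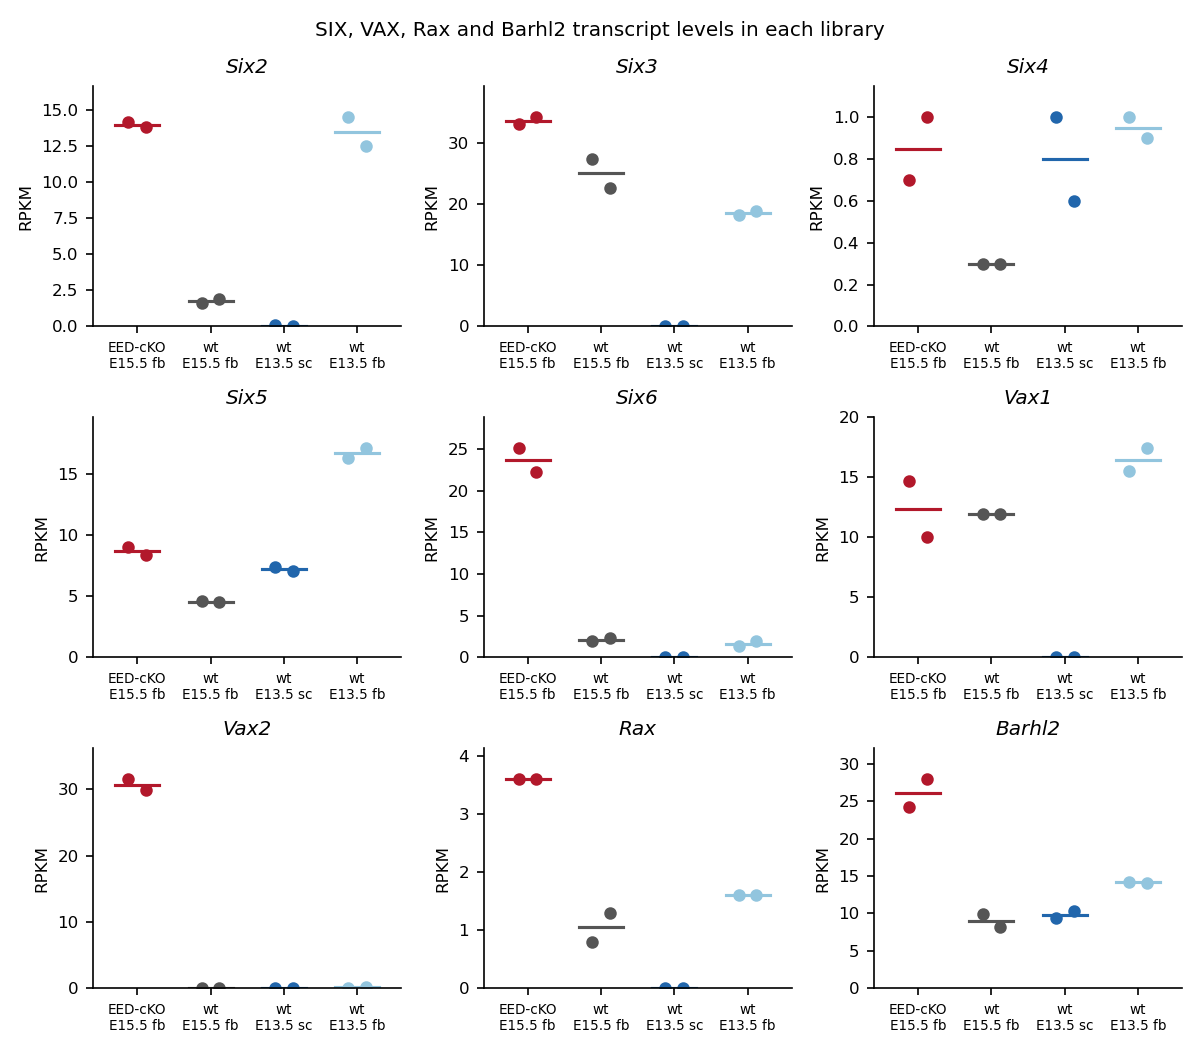
RPKM (y axis, linear, from 0) of each of the 9 genes in each of the 8 libraries, by group on the x axis (fb, forebrain; sc, spinal cord). Points are single libraries and lines group means, and in the Vax2 panel both EED-cKO libraries stand at 29.9 and 31.5 RPKM while every wt library is at 0.2 RPKM or below.

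In E15.5 forebrain, 8 of the 9 genes were higher in EED-cKO than in wt, none was lower, and Vax1 did not pass the test. Without Vax2, 7 of 8 were higher, and the median log2 difference of these 8 was 0.99. Genes called higher made up 30.2% of all tested genes in this comparison and genes called in either direction 46.9%, with a median log2 difference over all tested genes of 0.076. A call means a Benjamini-Hochberg adjusted p under 0.05 in limma over all 17022 genes, on log2(RPKM + 1), and all differences below are on that scale. Of the 9 genes, 5 differed by at least 1 and were called higher, a size reached by 6.59% of tested genes. These 5 include Vax2, whose place among the tested genes rests on its EED-cKO level. The libraries of the 2 genotypes did not overlap for the same 8 genes that were called, or for 7 of 8 without Vax2. Of all tested genes, 42.6% were higher without overlap and 70.3% did not overlap in either direction. In bulk tissue, more cells of a type and more RNA per cell cannot be told apart.

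Vax2, a ventral retina and optic stalk factor, had 31.5 and 29.9 RPKM in EED-cKO forebrain and was listed at 0 in both wt libraries at E15.5. Its log2 difference of 4.99 (SE 0.092, adjusted p = 5.88e-07) ranked 7 from the highest among all tested genes, and no fold can be given against a level of 0. With a pseudocount of 0.1 in place of 1 the difference was 8.27. The gene was also close to 0 in normal tissue at E13.5, at 0.1 and 0 RPKM in spinal cord and at 0.1 and 0.2 RPKM in forebrain. The EED-cKO libraries were therefore the only ones of the 8 in which Vax2 exceeded 0.2 RPKM. Its paralogue Vax1, a factor of the optic stalk and ventral telencephalon, had 14.7 and 10 RPKM in EED-cKO and 11.9 RPKM in each wt library. Here the wt value lay between those of EED-cKO. The log2 difference was 0.027 with a 95% interval of -0.35 to 0.41 (adjusted p = 0.916), and its sign changed under other scalings. In wt forebrain at E15.5 Vax1 averaged 11.9 RPKM where Vax2 was listed at 0.

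Six6, which drives proliferation of retinal and hypothalamic-pituitary progenitors, had 25.1 and 22.3 RPKM in EED-cKO forebrain and 1.9 and 2.3 RPKM in wt forebrain. The means were 23.7 ± 1.98 RPKM in EED-cKO and 2.1 ± 0.283 RPKM in wt (SD, n = 2 each), a ratio of 11.3 and a log2 difference of 2.99 (SE 0.13, adjusted p = 1.83e-05). It ranked 48 from the highest of 17022 genes. Six3, the closest relative of Six6, represses Wnt signals in the rostral forebrain. It had 33.1 and 34.2 RPKM in EED-cKO and 27.4 and 22.7 RPKM in wt, with no overlap between the groups. Its log2 difference was 0.42 (SE 0.097, adjusted p = 0.0115), and the adjusted p became 0.0715 when the 4 E15.5 libraries were fitted alone. The call was not kept with either EED-cKO library left out. The log2 difference was then 0.44 (without replicate 1) or 0.39 (without replicate 2). The paralogues thus had unlike ratios, 1.34 for Six3 against 11.3 for Six6, but the difference between the 2 genes was not itself tested. Rax, which is needed to form the eye vesicle and acts in hypothalamic progenitors, had 3.6 RPKM in both EED-cKO libraries and 0.8 and 1.3 RPKM in wt. Its log2 difference was 1.18 (SE 0.12, adjusted p = 0.000405), with means in a ratio of 3.43.

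Six2, best known for maintaining nephron progenitors and also present in head mesenchyme, had 14.2 and 13.8 RPKM in EED-cKO forebrain and 1.6 and 1.9 RPKM in wt forebrain. The ratio of the means was 8 and the log2 difference 2.45 (SE 0.11, adjusted p = 2.29e-05), rank 81 from the highest. At E13.5 wt forebrain had 14.5 and 12.5 RPKM of Six2. Summed RPKM differed between the ages, so these values cannot be ranked against those at E15.5. Six5, a gene next to Dmpk, had 9.0 and 8.4 RPKM in EED-cKO and 4.6 and 4.5 RPKM in wt, a log2 difference of 0.80 (SE 0.076, adjusted p = 0.000318). At E13.5 its forebrain level was 16.3 and 17.1 RPKM, with the same limit. Six4, a gene of muscle and sensory ganglia, was low throughout, with 0.7 and 1.0 RPKM in EED-cKO and 0.3 RPKM in each wt library. The groups did not overlap and the log2 difference was 0.50 (SE 0.13, adjusted p = 0.0168). With values this near the rounding step of 0.1 RPKM, the call was not kept with EED-cKO replicate 2 left out (log2 difference 0.39). Nor was it kept with either E15.5 wt library left out. The call was also lost after quantile normalization (log2 difference 0.086, adjusted p = 0.560).

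Barhl2 had 24.2 and 27.9 RPKM in EED-cKO forebrain and 9.9 and 8.2 RPKM in wt forebrain. Both EED-cKO libraries exceeded both wt libraries of that age. At E13.5 Barhl2 had 9.4 and 10.3 RPKM in spinal cord and 14.2 and 14.1 RPKM in forebrain. Summed RPKM differed between the ages, so these values cannot be ranked against those at E15.5. The log2 difference at E15.5 was 1.43 (SE 0.11, adjusted p = 0.000144), with means in a ratio of 2.88.

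**Figure D2:**
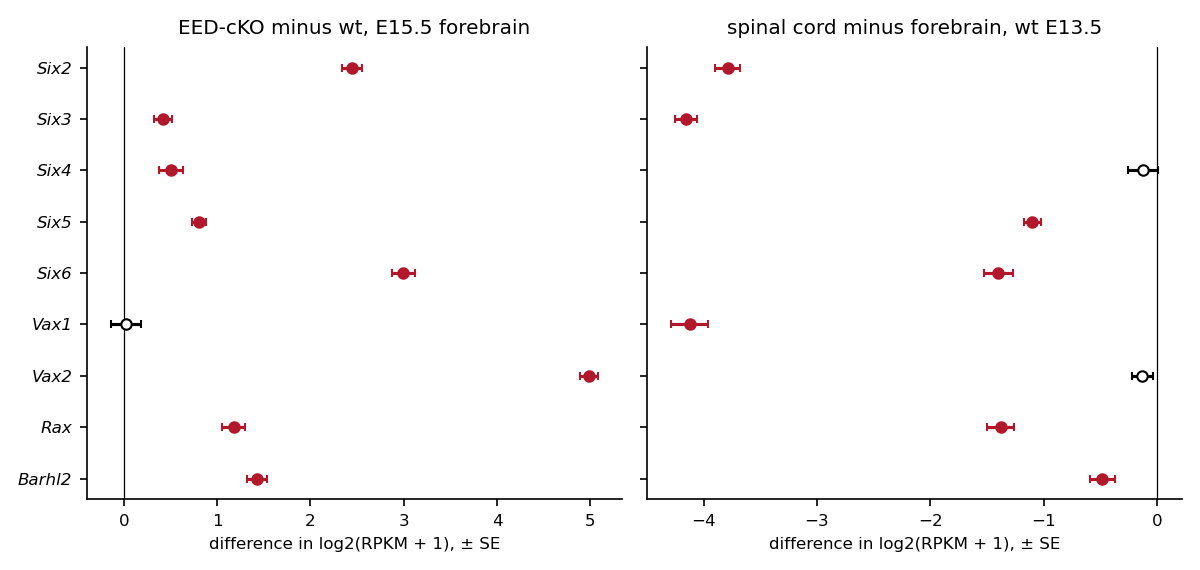
Difference in log2(RPKM + 1) with its SE for each of the 9 genes, for EED-cKO minus wt forebrain at E15.5 and for spinal cord minus forebrain in wt at E13.5, with open symbols where limma made no call. In the knockout comparison the genes extend up to 4.99 (Vax2) and in the regional comparison down to -4.15 (Six3).

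The order of levels among the 9 genes differed between genotypes. In EED-cKO forebrain the means ran from Six3 at 33.65 RPKM through Vax2 at 30.7, Barhl2 at 26.05, Six6 at 23.7, Six2 at 14, Vax1 at 12.35, Six5 at 8.7 and Rax at 3.6 to Six4 at 0.85 RPKM. Of the neighbours in that order, Barhl2 and Six6 overlapped between replicates, as did Six2 and Vax1. In wt forebrain at E15.5 the order was Six3 at 25.05 RPKM, Vax1 at 11.9, Barhl2 at 9.05, Six5 at 4.55, Six6 at 2.1, Six2 at 1.75, Rax at 1.05 and Six4 at 0.3 RPKM, with Vax2 at 0. Only Six6 and Six2 overlapped among the neighbours there. RPKM is scaled by transcript length, so these are levels per length.

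A fit without EED-cKO replicate 2 leaves 1 EED-cKO library, so its log2 differences are given without p-values. They were 5.02 for Vax2, 3.08 for Six6, 2.47 for Six2, 1.33 for Barhl2 and 1.18 for Rax. Six5 had 0.85, Six3 0.39, Six4 0.39 and Vax1 0.28. Marker lists of other tissues moved with the knockout as follows. The 10 pituitary markers summed to 75.8 and 170.9 RPKM in EED-cKO libraries and to 10.1 and 10.7 RPKM in wt forebrain. All 3 of these markers that could be tested were higher. Among them Pitx1, a factor of the pituitary and hindlimb, had 7.9 and 11.4 RPKM in EED-cKO and was listed at 0 in wt. The hormone gene Lhb was higher as well, with 8.7 and 6.2 RPKM in EED-cKO and 1.6 RPKM in each wt library (log2 difference 1.68). The other hormone genes of the list, Gh, Prl, Tshb and Cga, were listed at 0 in EED-cKO replicate 1, in which Six6 was at 25.1 RPKM, Vax2 at 31.5 and Rax at 3.6. The part of pituitary tissue in these values was not tested.

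The mesenchyme list moved with the knockout in both libraries. Its 13 genes summed to 776.5 and 945.7 RPKM in EED-cKO and 263.2 and 202.7 RPKM in wt forebrain. All 13 were called higher, or 12 in the deposited row order, with a median log2 difference of 1.48. Twist1, a factor of head mesenchyme, had 25.9 and 25.3 RPKM in EED-cKO and 2.5 and 2.0 RPKM in wt. Six2 and Eya genes are also used in mesenchyme, and the part of these cells in the values of the 9 genes was not tested. Skeletal muscle markers, 12 genes, summed to 7.1 and 116.0 RPKM in EED-cKO and 5.0 and 7.4 RPKM in wt, with neither of the 2 testable genes called. Blood markers, 8 genes, summed to 11533 and 12985 RPKM in EED-cKO and 8273 and 11079 RPKM in wt, with 1 called higher and 1 lower, or 3 higher and 1 lower after quantile normalization. The lower gene was the beta-globin gene Hbb-bt, with 5.9 and 8.1 RPKM in EED-cKO and 395.4 and 547.4 RPKM in wt, a log2 difference of -5.88 that ranked lowest of all 17022 genes. Its near-identical copy Hbb-bs had 5109 and 5902 RPKM in EED-cKO and 3159 and 4340 RPKM in wt and was not called, so how reads were split between these copies leaves both values uncertain.

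Markers of the eye itself were scarce. Of 13 retina and photoreceptor markers, 10 were below 1 RPKM in each EED-cKO library and 11 in each wt library at E15.5. Crx, which photoreceptors need, had 0.2 and 0.7 RPKM in EED-cKO and 0.7 and 0.4 RPKM in wt. The list's sum, 27.8 and 25.3 RPKM in EED-cKO and 55.8 and 66.4 RPKM in wt, was mostly Rlbp1, a retinoid-binding protein also made by glia. Leaving out Nrl, which could be tested only through EED-cKO, Rom1 was higher and Rlbp1 lower. Pigment markers, 9 genes, summed to 7.9 and 5.4 RPKM in EED-cKO and 5.2 and 4.7 RPKM in wt, and Rpe65 and Tyr were at 0.3 RPKM or below in every E15.5 library. Of the pigment genes, Best1 and Oca2 could be tested only through EED-cKO, and the remaining testable gene, Dct, was lower. Lens markers, 12 genes, summed to 12.8 and 12.4 RPKM in EED-cKO and 7.0 and 8.3 RPKM in wt, and Cryba2 and Crybb3 could be tested only through EED-cKO. Of the other 4 testable lens genes, 2 were higher and none was lower, with Cryaa at 0.2 RPKM or below.

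**Figure D3:**
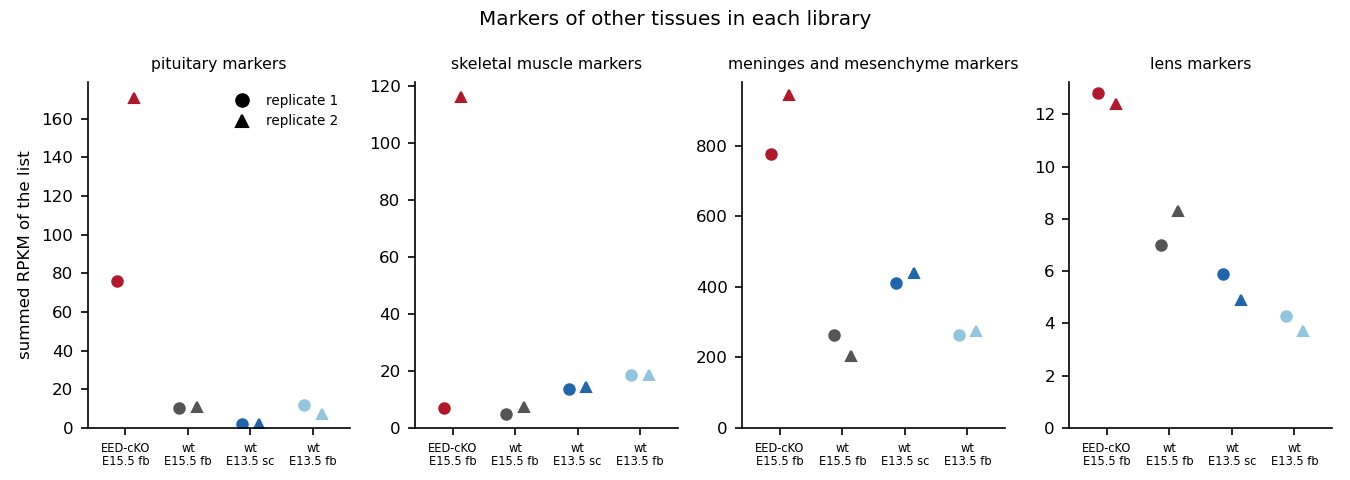
Summed RPKM (y axis, linear, from 0) of 4 marker lists in each library, by group on the x axis (fb, forebrain; sc, spinal cord), with circles for replicate 1 and triangles for replicate 2. The muscle sum is 116.0 RPKM in EED-cKO replicate 2 and 7.1 in replicate 1, whereas the mesenchyme sum is high in both, at 776.5 and 945.7 RPKM.

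In wt embryos at E13.5, 7 of the 9 genes were lower in spinal cord than in forebrain, none was higher, and Six4 and Vax2 did not pass the test. Called lower were 23.9% of all tested genes and called in either direction 45.7%, with a median log2 difference of 0. The median of the 9 genes was -1.38. Without Vax2, which was near 0 in both regions, 7 of 8 were lower and the median was -1.39. Of the 9 genes, 6 were lower by at least 1, a size reached by 4.41% of tested genes. The 7 called genes had no overlap between regions, as had 39.3% of tested genes in that direction and 76.3% in either.

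Six3 had 0.1 RPKM in both spinal cord libraries and 18.2 and 18.9 RPKM in forebrain. Vax1 was listed at 0 in both spinal cord libraries and had 15.5 and 17.4 RPKM in forebrain. Six2 had 0.1 and 0 RPKM in spinal cord and 14.5 and 12.5 RPKM in forebrain. These 3 genes had log2 differences of -4.15 (SE 0.097, adjusted p = 4.98e-07), -4.12 (SE 0.16, adjusted p = 5.12e-06) and -3.79 (SE 0.11, adjusted p = 1.23e-06) in that order, ranking 21, 22 and 26 from the lowest of all tested genes. Six6 and Rax were listed at 0 in spinal cord as well, but were also low in forebrain, at 1.4 and 1.9 RPKM for Six6 and 1.6 RPKM in each library for Rax. Their log2 differences were -1.40 (SE 0.13, adjusted p = 0.000153) and -1.38 (SE 0.12, adjusted p = 0.000134). With spinal cord at or near 0 the size of these differences is set by the pseudocount. With 0.1 in place of 1 they were -6.54 for Six3, -7.37 for Vax1, -6.58 for Six2, -4.11 for Six6 and -4.09 for Rax, all still called.

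Six5 and Barhl2 were the members present in both regions above 7 RPKM. Six5 had 7.4 and 7.1 RPKM in spinal cord and 16.3 and 17.1 RPKM in forebrain, a log2 difference of -1.10 (SE 0.076, adjusted p = 4.87e-05). Barhl2, which marks dorsal commissural neurons in the cord, had 9.4 and 10.3 RPKM in spinal cord and 14.2 and 14.1 RPKM in forebrain, a log2 difference of -0.48 (SE 0.11, adjusted p = 0.00973). That call was lost when either forebrain library or spinal cord replicate 1 was left out, each of which leaves 1 library in a group. Six4 had 1.0 and 0.6 RPKM in spinal cord and 1.0 and 0.9 RPKM in forebrain, with a 95% interval of -0.43 to 0.18 (adjusted p = 0.477). For Vax2, at 0.2 RPKM or less in all 4 libraries, the interval was -0.35 to 0.09 (adjusted p = 0.285).

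**Figure D4:**
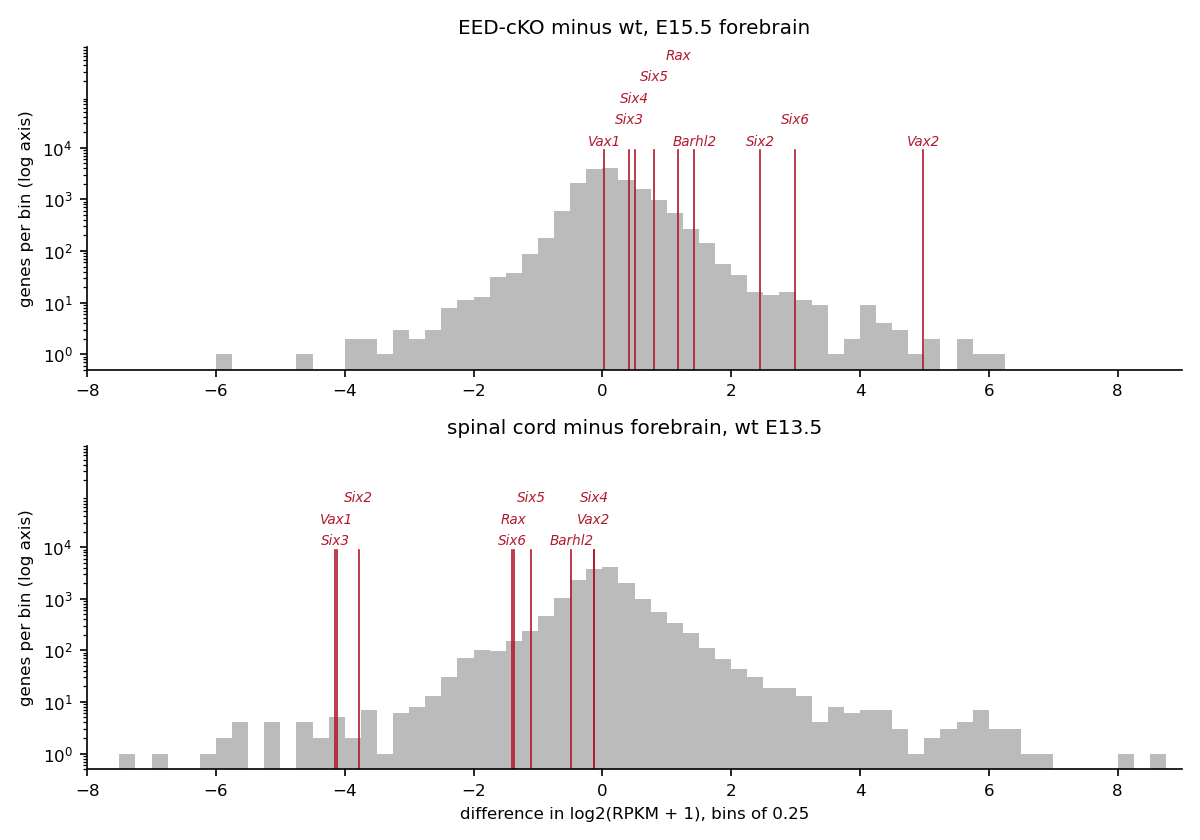
Histograms of the difference in log2(RPKM + 1) over all 17022 tested genes, in bins of 0.25 with a log y axis, for EED-cKO minus wt at E15.5 (top) and spinal cord minus forebrain at E13.5 (bottom). Vertical lines mark the 9 genes: at the top Vax2, Six6 and Six2 lie in the upper tail at 4.99, 2.99 and 2.45, and at the bottom Six3, Vax1 and Six2 lie in the lower tail at -4.15, -4.12 and -3.79.

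Among 11 partners and relatives of the Six-type proteins, 7 were higher in EED-cKO forebrain, 1 was lower and 3 were not called, with a median log2 difference of 1.02. With the 4 E15.5 libraries alone the count was 6 higher and 1 lower. Over all tested genes, 30.2% were called higher in EED-cKO and 16.7% lower, and these shares also serve for the 2 lists that follow. The coactivator gene Eya1 had 8.7 and 9.0 RPKM in EED-cKO and 3.5 and 3.0 RPKM in wt (log2 difference 1.21, adjusted p = 0.000199). Dach2, of the Dachshund family, had 5.0 and 4.5 RPKM in EED-cKO and 1.6 and 1.7 RPKM in wt (log2 difference 1.12, adjusted p = 0.000186). Barhl1, the paralogue of Barhl2, had 13.6 and 15.0 RPKM in EED-cKO and 5.6 and 2.1 RPKM in wt (log2 difference 1.76, adjusted p = 0.00520). The 2 wt libraries of Barhl1 were far apart, and its call was lost without EED-cKO replicate 2 and with the 4 E15.5 libraries alone. In spinal cord against forebrain, 2 of the 11 were higher, Barhl1 and Eya2, and 5 were lower, with Eya4 (-1.58) and Eya1 (-1.43) the largest.

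Eye-field and optic cup factors did not move one way. Leaving out Tbx5 and Mitf, which could be tested only through EED-cKO, 9 of 20 were higher in EED-cKO, 7 were lower and 4 were not called. With those 2 included, 11 of 22 were higher and 7 lower. In the deposited row order 8 of 21 tested genes of the list were higher and 6 lower. Pax2, the optic stalk gene, had 20.0 and 16.8 RPKM in EED-cKO and 0 and 0.1 RPKM in wt, with a log2 difference of 4.20 (SE 0.11, adjusted p = 2.90e-06). Pou4f2, a retinal ganglion cell factor also used in brainstem and sensory neurons, had 6.3 and 6.6 RPKM in EED-cKO and 0.5 and 0 RPKM in wt. Tbx5, a dorsal retina and heart factor, had 10.6 and 9.1 RPKM in EED-cKO and was listed at 0 in wt. Among the lower genes, Lhx2, which specifies eye field and cortex, had 58.7 and 49.9 RPKM in EED-cKO and 137.1 and 148.0 RPKM in wt (log2 difference -1.38, adjusted p = 0.000202).

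Lhx2 and the next genes, partners of Six3 and Rax in the eye field, were chosen after their values were seen. Pax6, the eye and cortical progenitor gene, had 21.1 and 27.3 RPKM in EED-cKO and 31.1 and 27.9 RPKM in wt (log2 difference -0.28, 95% interval -0.64 to 0.07, adjusted p = 0.165). Otx2, of the eye field and diencephalon, had 38.9 and 38.3 RPKM in EED-cKO and 14.9 and 9.8 RPKM in wt (log2 difference 1.60, adjusted p = 0.000436). Atoh7, which starts ganglion cell formation, had 0.5 and 0.4 RPKM in EED-cKO and 0.4 and 0.2 RPKM in wt.

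Hypothalamic and anterior midline factors were higher in 13 of 19 tested genes and lower in 2, with a median log2 difference of 1.0. The count was 11 higher and 2 lower with quantile normalization, and the same in the deposited row order. Otp, needed for neuroendocrine neurons of the hypothalamus, had 42.5 and 35.0 RPKM in EED-cKO and 11.7 and 10 RPKM in wt (log2 difference 1.74, adjusted p = 0.000103). Nkx2-2, a ventral neural tube factor, had 27.9 and 29.8 RPKM in EED-cKO and 6.3 and 5.7 RPKM in wt (log2 difference 2.09, adjusted p = 4.92e-05). The value of Nkx2-2 depends on the restored row order, since read in the deposited order its log2 difference was close to 0. Fezf2, a factor of deep-layer cortical neurons, was lower, at 9.4 and 8.9 RPKM in EED-cKO and 51.9 and 59.1 RPKM in wt. In spinal cord against forebrain, 11 of the 19 were lower and 3 higher, and of the 22 eye-field genes 14 were lower and 5 higher. Of all tested genes, 23.9% were called lower and 21.8% higher between these regions. Among the regional log2 differences of the 2 lists were those of Nkx2-1 (-5.73), Nr2e1 (-5.51), Pax2 (5.27) and Fezf2 (-5.17).

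**Figure D5:**
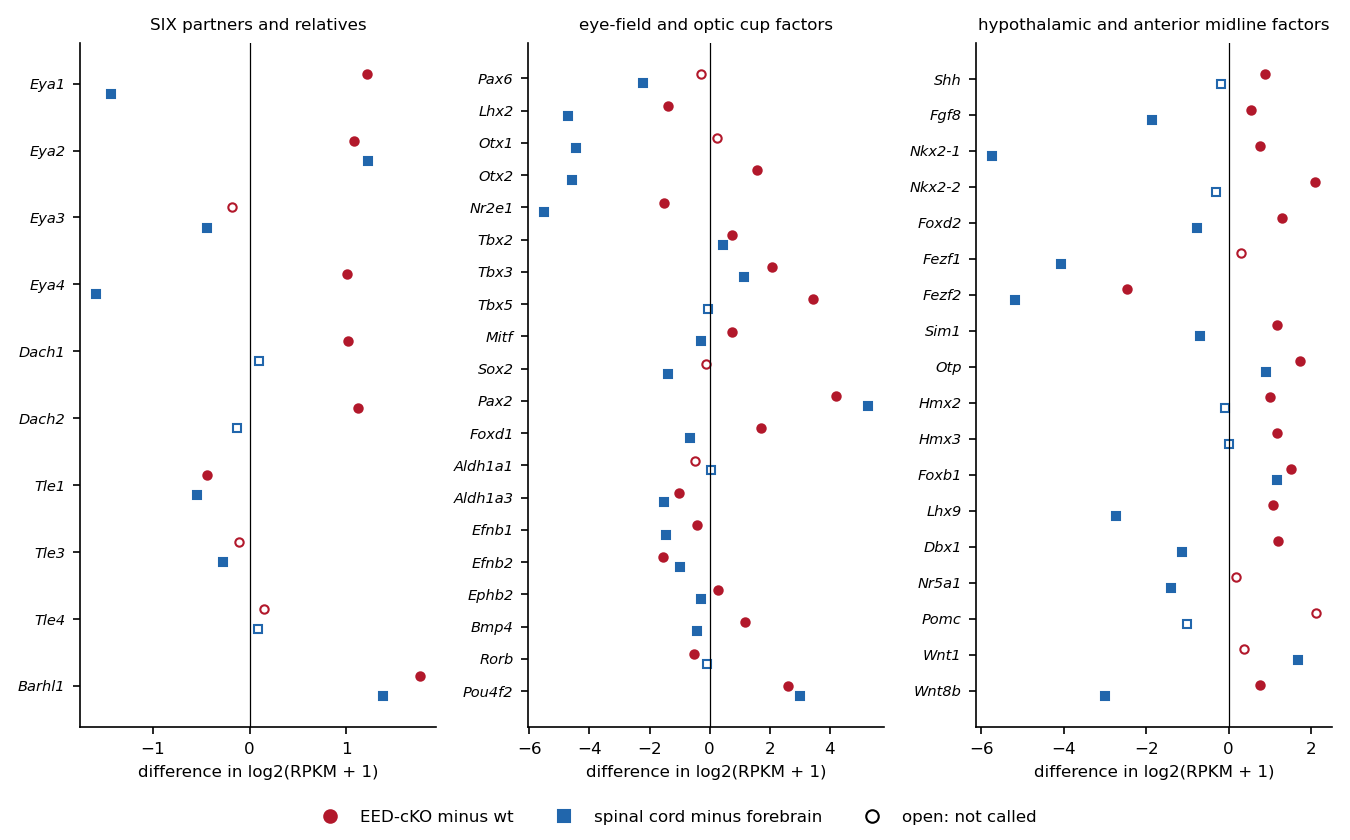
Difference in log2(RPKM + 1) (x axis) for tested genes of 3 lists, with circles for EED-cKO minus wt forebrain at E15.5, squares for spinal cord minus forebrain in wt at E13.5, and open symbols where limma made no call. Hypothalamic genes lie mostly to the right of 0 in the knockout comparison, 13 of the 18 drawn called higher, while eye-field genes lie on both sides.

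Several members sit in gene pairs or beside antisense transcripts. In the GENCODE annotation of GRCm38, Six3 (chr17:85613608-85629302, plus strand) and Six2 (chr17:85684277-85688274, minus strand) are 54974 bases apart. Six6 (chr12:72939892-72944899, plus strand) is 154709 bases from Six4 (chr12:73099609-73113456, minus strand). Within the first pair Six2 had a log2 difference of 2.45 and Six3 of 0.42 in the knockout, and within the second Six6 had 2.99 and Six4 0.50. Of the other members, Six5 lies at chr7:19094594-19098549 (plus strand), Vax1 at chr19:59166187-59170056 (minus strand), Vax2 at chr6:83711264-83738313 (plus strand) and Barhl2 at chr5:106452523-106458166 (minus strand). The position of Rax was not looked up.

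The libraries were unstranded, so reads of overlapping genes on opposite strands cannot be told apart. Vax2os overlaps Vax2 by 938 bases and had 3.8 and 2.9 RPKM in EED-cKO and 0.1 and 0 RPKM in wt. The gene 4930447C04Rik, annotated as protein coding on the opposite strand, overlaps Six6 by 883 bases. It had 6.8 and 5.6 RPKM in EED-cKO and 1.2 and 0.8 RPKM in wt (log2 difference 1.85, adjusted p = 0.000122). Six3os1 overlaps Six3 by 4791 bases in GENCODE, where Six3 begins at 85613608 and Six3os1 ends at 85618398. The RefSeq start window of Six3 ends at 85620833, so from that start the 2 genes do not overlap. Six3os1 had 12.4 and 11.9 RPKM in EED-cKO and 10.5 and 9.0 RPKM in wt, a log2 difference of 0.29 that was not called (adjusted p = 0.0780). Between regions Six3os1 had 0.1 RPKM in both spinal cord libraries and 16.9 and 20.7 RPKM in forebrain, as low in the cord as Six3. Of 11 tested neighbours and antisense genes, leaving out Vax2os, which could be tested only through EED-cKO, 3 of 10 were higher in EED-cKO and 2 were lower, of which Slc18a2 was lower only in the restored row order. These counts are near the shares of all tested genes, 30.2% higher and 16.7% lower. Among coding neighbours that do not overlap a member, Dmpk, 772 bases from Six5, had 10.1 and 11.6 RPKM in EED-cKO and 7.1 and 6.1 RPKM in wt.

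The genes whose log2(RPKM + 1) followed each member most closely over the 8 libraries are given as a description, since 4 groups of 2 set most of each correlation. Among them Prr5l, Tbx15, Hoxb13, Nkx2-5, Krt8, Ccdc40 and Tcf7l1 moved row, so their correlations depend on the restored row order. For Six2 they were Smo (Pearson r 0.995), Prr5l (0.989) and Eya1 (0.982), and for Six6 they were Hrh3 (0.997), Tbx15 (0.996) and Erich2 (0.996). Vax2 was followed by Hoxb13, Hand2 and Nkx2-5 (0.999 each), which were listed at 0 in every wt library. Like Vax2, these genes could be tested only through EED-cKO, so a correlation near this size follows from that selection. Vax1 was followed by Lhx8 (0.994), Mthfd1 (0.994) and Six3os1 (0.992), and Six3 by Camk2a (0.997), Dlx6 (0.996) and Iars2 (0.996). Rax was followed by Otx2os1 (0.997), Krt8 (0.990) and Katnal2 (0.987), Barhl2 by Ccdc40 (0.992), Lamb2 (0.990) and Emilin1 (0.988), Six5 by Tcf7l1 (0.986), Hus1 (0.984) and Yap1 (0.984), and Six4 by Plvap (0.981), Exoc3l2 (0.954) and Hmcn1 (0.938).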

How the data were processed

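Total RNA of dissected tissue was made into unstranded single-end libraries (NEBNext Ultra, HiSeq2500), per the labels' protocols. The authors deposited 1 table of RPKM values rounded to 0.1, with 36333 rows. The submitters' processing notes name the builds mm9 and GRCm38 without their roles; the aligner and counter are not given in the sources used here. Names of the 4 E15.5 columns were assigned in alphabetical order, ignoring case and hyphens, which moved 23015 symbols and raised r between wt forebrain at E15.5 and E13.5 to 0.948, against 0.760 in the deposited order; this order was chosen after the data were seen. All 9 members keep the same row in both orders. A gene was tested if 2 or more libraries had 1 RPKM or more, on log2(RPKM + 1) with limma 3.58.1 (R 4.3.3), 1 fit over all 8 libraries with a trend, two-sided. Tables and figures used matplotlib 3.10.9, pandas 2.3.3 and numpy 2.4.6 under Python 3.11.15. The test was checked on simulated data.

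The members and lists were chosen with earlier results of these data known. The text names all members, Eed, up to 4 called genes of each list by size of change whose higher group averaged 2 RPKM or more, and the 3 genes most correlated with each member; other genes named were chosen after their values were seen. Samples were grouped by labelled genotype, tissue and age. Alternatives covered pseudocount, filter, scaling, row order, libraries fitted, replicate block and each library left out. Knockout spinal cord, which the design mentions, is not analysed here. Some genes of the lists are counted but not reported here by name.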

Additional observations from a re-analysis of the deposited data

How the results depend on the processing

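Vax2, Six6, Six2, Barhl2, Rax and Six5 were called higher in EED-cKO in the main fit. Their log2 differences kept their sign in all 18 alternatives, some of which leave 1 library in a group. These were 4.58 to 8.27, 2.76 to 3.44, 2.17 to 2.93, 1.27 to 1.55, 0.83 to 1.72 and 0.50 to 0.92 in that order. The uncalled difference of Vax1 became -0.17 with quantile normalization, -0.089 with median ratio scaling and ranged over -0.23 to 0.28 with a library left out (-0.23 without EED-cKO replicate 1), and that of Six4 between regions ranged over -0.28 to 0.037 with a library left out, the sign turning without spinal cord replicate 2. Slc18a2, a neighbour of Vax1 that moved row, had 0.069 in the deposited order. Genes called in EED-cKO against wt numbered 7987, but 4777 with only the 4 E15.5 libraries and 4922 to 9606 with a library left out, the lowest without EED-cKO replicate 2. Of the calls in the main fit 64.5% were higher, against 45.1% with quantile normalization and 48.8% with median ratio scaling, which moved the median of all genes to -0.05 and -0.01. The replicate numbers share only a number: deviations of replicate 1 correlated at -0.12 (EED-cKO and wt) and 0.21 (spinal cord and forebrain) over 17022 genes. With the replicate block 7608 and 7466 genes and 8 and 7 members were called in these comparisons, and with crossed numbers 8013 genes and 8 members in the knockout. Having 2 libraries a group, unknown depth and rounding to 0.1 RPKM limit what can be said of Six4. The cause of these shifts was not tested.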
